A study of Brassica rapa with 6 samples.

Results

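The miR167 family of Chinese cabbage (Brassica rapa) comprised every entry of the deposited small RNA table whose name contains miR167 followed by no further digit. These were 14 of 1069 rows, and they held 9 distinct mature sequences of 1011 in all, since rows that repeated a sequence also repeated its values. The family was selected on its difference between petiole and leaf in these same libraries. That difference is therefore given below as a description without a test. Small RNA had been sequenced from leaf and from petiole, the stalk that carries the blade, of wild-type plants grown in a greenhouse. There were 3 libraries of each tissue, with no treatment, and no cultivar or age was given. Nothing in the labels says that the libraries came from separate plants, so the spread between them may be technical. A table of small RNAs holds no gene that defines leaf or petiole, and the tissue labels could not be checked against markers.

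In plants a microRNA is cut by a Dicer-like enzyme from the folded stem of its precursor as a duplex of a 5p and a 3p strand. One strand, the mature form, is kept by an Argonaute protein and guides it to matching transcripts, and the other, the star strand, is usually degraded. The 5p strand of miR167 is the mature form. In Arabidopsis it directs the cleavage of transcripts of ARF6 and ARF8, auxin response factors that switch on auxin-responsive genes, and of IAR3, an enzyme that frees auxin from a stored conjugate. Arabidopsis plants whose ARF6 or ARF8 escapes miR167 have defective ovules and anthers. The RefSeq annotation of B. rapa (assembly CAAS_Brap_v3.01) names 2 MIR167 genes, MIR167A and MIR167B, and 2 ARF8 genes. Transcripts of these genes were not analysed here.

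The 9 sequences fell into 6 forms of the 5p arm and 3 of the 3p arm. They are printed as in the deposited table, 5′ to 3′ with T for U, because the differences between forms turned on 1 or a few letters. In the first set capitals mark bases 2 to 8, called the seed here.
bra-miR167a (5p): tGAAGCTGccagcatgatcta
ath-miR167c-5p (5p): tAAGCTGCcagcatgatcttg
bra-MIR167d-p3 (3p): gATCATGTtcgcagtttcacc
ptc-miR167f-3p_L-1 (3p): gATCATGTggcagtttcacc
bna-MIR167d-p3 (3p): aGATCATCctgcggcttcatt
The other 4 forms of the 5p arm shared the first 20 bases of bra-miR167a and its seed GAAGCTG, so 5 of the 6 forms of that arm carried 1 seed. Here capitals mark the letters at the 3′ end that differ from, or were added to, bra-miR167a.
bna-miR167d_R+1: tgaagctgccagcatgatctT
ath-miR167a-5p_1ss21AC: tgaagctgccagcatgatctC
bna-miR167d_R+2: tgaagctgccagcatgatctGG
gma-miR167a_R+2: tgaagctgccagcatgatctaCA

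With positions counted from the 5′ end of bra-miR167a, bna-miR167d_R+1 was A21T, ath-miR167a-5p_1ss21AC was A21C, and bna-miR167d_R+2 was A21G with 1 base added. The form gma-miR167a_R+2 was bra-miR167a with 2 further bases. In ath-miR167c-5p the start of the seed lay elsewhere, with AAGCTGC at bases 2 to 8. Among the 3p forms, bra-MIR167d-p3 and ptc-miR167f-3p_L-1 shared the seed ATCATGT and were 2 edits apart, whereas bna-MIR167d-p3 was 8 edits from either. The names carry the species of the matched entry and do not place a sequence at a locus. The sequence listed as bra-MIR167d-p3 also stood under bra-MIR167b-p3 and ath-miR167a-3p, and that of bna-miR167d_R+2 under ath-miR167d.

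Each 3p form could pair along its length with the 5p forms. RNAduplex gave 18 base pairs between bra-miR167a and each of the 3 forms, with energies of -26.3 kcal/mol for bra-MIR167d-p3, -28.2 kcal/mol for ptc-miR167f-3p_L-1 and -24.4 kcal/mol for bna-MIR167d-p3. With ath-miR167c-5p the number of pairs was 16 for each. The precursor from which a given strand came could not be read from this pairing.

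The mature form was abundant in leaf and scarce in petiole. Values are the authors' normalized counts, which are comparable between libraries as far as their scaling holds. The form bra-miR167a had 19353, 18244 and 17300 in leaf libraries 1 to 3, and 91.7, 84.7 and 83.2 in petiole libraries 1 to 3. Every leaf value stood far above every petiole value, and bra-miR167a was between the 6th and the 9th most abundant sequence of a leaf library and between the 126th and the 134th of a petiole library. The ratio of the means, 18299 ± 1028 in leaf to 86.5 ± 4.53 in petiole (SD, n = 3 each), was 211. In such bulk samples fewer cells that hold a miRNA and less of it per cell cannot be told apart.

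The main 3p form was as abundant as the mature form in leaf and was also scarce in petiole. For bra-MIR167d-p3 the leaf libraries had 19206, 21843 and 19375, and the petiole libraries had 239, 246 and 220. The groups did not overlap, and the ratio of the means, 20141 ± 1476 to 235 ± 13.5, was 85.7. Both main forms were thus lower in each petiole library, bra-miR167a by the larger factor.

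**Figure D1:**
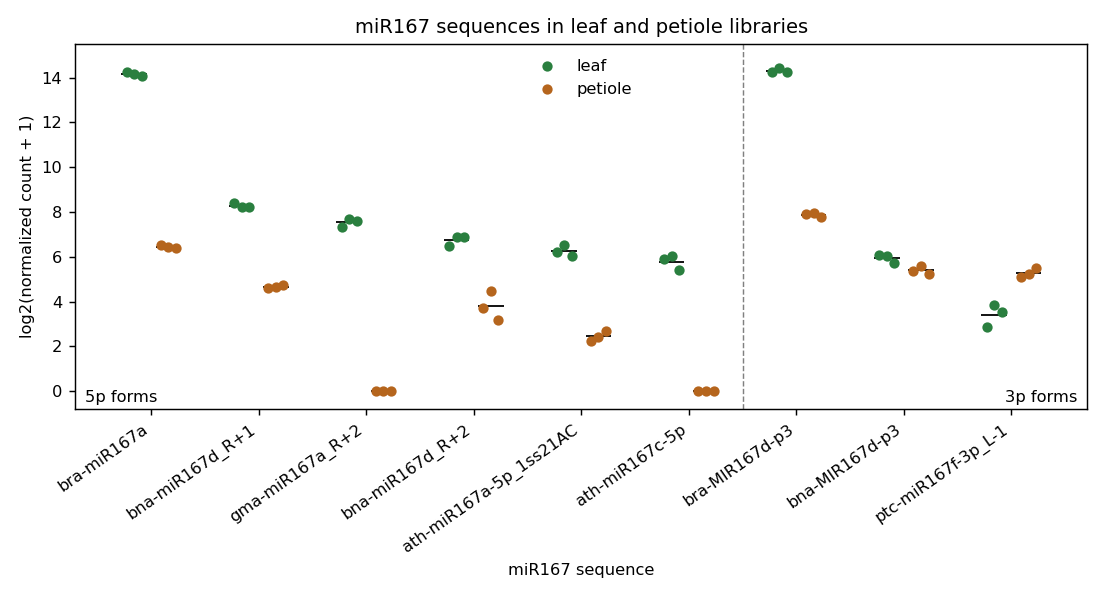
Level of each miR167 sequence as log2(normalized count + 1), with 1 point per library (green leaf, brown petiole, 3 each) and a bar at the group mean; 5p forms stand left of the dashed line and 3p forms right of it. bra-miR167a and bra-MIR167d-p3 drop furthest among the forms above 0 in petiole, gma-miR167a_R+2 and ath-miR167c-5p are listed at 0 there, and ptc-miR167f-3p_L-1 alone is higher in petiole on these deposited values, joined by bna-MIR167d-p3 with equal totals.

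The 3p forms of lower abundance followed other patterns. The form ptc-miR167f-3p_L-1, which differs from the main 3p form by 2 edits, had 6.22, 13.5 and 10.6 in leaf and 33.1, 36.5 and 44.3 in petiole. On the deposited values it was the single member higher in petiole, joined by bna-MIR167d-p3 with equal totals. It had means of 10.1 ± 3.68 and 37.9 ± 5.76 and a ratio of 3.75 (petiole to leaf, SD, n = 3 each). These leaf values stood for 6, 13 and 10 reads, where counting error is large.

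The form bna-MIR167d-p3 differed little between the tissues. It had 67.4, 65.7 and 51.9 in leaf and 40.6, 48.0 and 36.2 in petiole. The groups did not overlap, but the gap between the lowest leaf and the highest petiole value was small, and the ratio of the means was 1.48. On the log2(value + 1) scale the difference, petiole minus leaf, was -0.56 ± 0.17 (SE).

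The less abundant 5p forms were lower in petiole, by smaller factors than bra-miR167a where they were above 0. For bna-miR167d_R+1 the values were 332, 299 and 294 in leaf and 23.2, 24.5 and 25.8 in petiole, a ratio of 12.6. The form bna-miR167d_R+2 had 89.7, 116 and 118 in leaf and 12.3, 21.1 and 8.14 in petiole, a ratio of 7.79. For ath-miR167a-5p_1ss21AC the values were 73.1, 92.8 and 64.1 against 3.78, 4.32 and 5.43, a ratio of 17.0. None of the 3 forms overlapped between tissues, and the petiole values of ath-miR167a-5p_1ss21AC stood for 4 to 6 reads.

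Both remaining 5p forms were listed at 0 in all petiole libraries. The form gma-miR167a_R+2 had 162, 207 and 191 in leaf, and ath-miR167c-5p had 59.1, 64.1 and 41.3. At the ratio to bra-miR167a seen in leaf, 1.02% and 0.30%, their petiole values would have been 0.88 and 0.26, or about 0.94 and 0.28 reads. No library of the table held a value of 1 read, so these zeros do not tell whether either form was reduced more than bra-miR167a. No fold is given for them.

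All 9 sequences passed the filter used for testing across the table, a mean normalized count of 5 or more across all 6 libraries. Of these gma-miR167a_R+2 and ath-miR167c-5p, at 0 in petiole, passed through leaf alone. So did ath-miR167a-5p_1ss21AC, whose petiole mean of 4.51 was below 5. Values did not overlap between tissues for 9 of 9 members, against 59.7% of entries tested. The median log2 difference was -3.81 over the members and 0.18 over all entries tested. The family was chosen on this contrast, so nothing is read from this count or median.

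Summed over its 9 sequences, miR167 had 39350, 40945 and 37446 in leaf and 444, 465 and 423 in petiole. It made up 4.97% ± 0.12 of all normalized counts of a leaf library and 0.102% ± 0.0027 of a petiole library (SD, n = 3 each). The 5p sum was 19034 ± 1031 in leaf and 129 ± 6.20 in petiole, a ratio of 147. The 3p sum was 20213 ± 1482 in leaf and 315 ± 15.1 in petiole, a ratio of 64.2.

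The summed table itself differed between tissues, with 772667 to 803819 normalized counts per leaf library and 428796 to 448448 per petiole library, standing for 729593 to 771262 and 457195 to 474192 reads. The mean leaf total was 1.81 times the mean petiole total, and 1.72 times with miR167 left out of both. Each library was therefore also scaled to the same total, as counts per 1000000 counts of the table (CPM). On that scale bra-miR167a was 23167 ± 1091 in leaf and 198 ± 12.2 in petiole, a ratio of 117, and bra-MIR167d-p3 was 25493 ± 1516 and 539 ± 22.1, a ratio of 47.3 (SD, n = 3 each). The family sum was 49681 ± 1238 CPM in leaf and 1017 ± 26.9 CPM in petiole, a ratio of 48.9.

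Equal totals turned the direction of 1 of the 9 members. The form bna-MIR167d-p3 was 85.1, 81.7 and 67.2 CPM in leaf and 94.1, 107 and 84.4 in petiole, where the groups overlapped, and its log2 difference was 0.28 ± 0.16 (SE) in place of -0.56. Equal totals moved the median log2 difference of all entries tested from 0.18 to 0.97, and bna-MIR167d-p3 lay below that median on either scale. With equal totals ptc-miR167f-3p_L-1 was 6.80 times higher in petiole, and the ratios of leaf to petiole were 6.97 for bna-miR167d_R+1, 4.34 for bna-miR167d_R+2 and 9.36 for ath-miR167a-5p_1ss21AC.

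Ratios between forms within a library do not depend on its total. In leaf both arms were balanced. The 3p sum was 0.961, 1.15 and 1.08 times the 5p sum in leaf libraries 1 to 3, and 2.39, 2.46 and 2.45 times in petiole libraries 1 to 3. The 3p arm therefore exceeded the 5p arm in every petiole library, while leaf values lay on both sides of 1, and the groups did not overlap. The log2 ratio was 0.09 ± 0.13 in leaf and 1.28 ± 0.02 in petiole (SD, n = 3 each), a difference of 1.19. The same held for the main pair alone, where bra-MIR167d-p3 was 0.992, 1.197 and 1.12 times bra-miR167a in leaf and 2.61, 2.91 and 2.64 times in petiole.

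Other ways of pairing the forms did not all shift toward 3p. The ratio of bna-MIR167d-p3 to bna-miR167d_R+2 was 0.751, 0.565 and 0.441 in leaf and 3.31, 2.27 and 4.44 in petiole. Its groups did not overlap, but the petiole values of bna-miR167d_R+2 stood for 13, 22 and 9 reads. Pairs set by species and locus name alone went in opposite directions. The name ath-miR167a joins the A21T form (bna-miR167d_R+1, also listed as ath-miR167a-5p_1ss21AT) to the main 3p form, and its log2 ratio of 3p to 5p was 6.02 in leaf and 3.21 in petiole, a shift of -2.81 toward 5p. In that name the suffix 1ss21AT marks an A to T change, and bra-miR167a carries A at that base. The name rule thus took a less abundant 5p variant, so this shift does not describe the main 5p form. The name bna-miR167d joins the same A21T form to bna-MIR167d-p3, and its log2 ratio was -2.31 in leaf and 0.74 in petiole, a shift of 3.05 toward 3p.

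The balance of the main pair was compared with other miRNAs of the table. Pairs of entries were taken that carry the same species and locus name on opposite arms, with a mean of at least 50 in the more abundant arm. This gave 51 pairs outside miR167, some of which share a sequence. The pair of bra-miR167a and bra-MIR167d-p3 was not set by that rule. Base pairing did not single it out, as bra-miR167a also formed 18 pairs with ptc-miR167f-3p_L-1, at -28.2 against -26.3 kcal/mol. This pair joins the most abundant form of each arm. It was set after its values were seen, and its place among the others rests on that choice. Its lesser form was 0.909 of the greater in leaf, against a median of 0.144 over the other pairs, and 2 pairs had a ratio at or above it. These were bra-miR1140 with bra-MIR1140-p5 at 0.949 and bra-miR164b-5p with bra-miR164b-3p at 0.957, and bra-miR860-3p with bra-MIR860-p5 stood nearest overall at 0.897. In petiole its ratio was 0.368, and 14 of 50 pairs were at or above it, with a median of 0.144. Under the name rule the miR167 ratios were 0.0153 in leaf and 0.104 in petiole for ath-miR167a, and 0.200 and 0.588 for bna-miR167d.

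Among the 3 most abundant pairs the 3p form dominated in both tissues. In leaf the lesser form was 0.0341 of the greater for bra-miR158, 0.179 for bra-miR1885b and 1.6e-04 for bra-miR159a. The shift of bra-miR167a with bra-MIR167d-p3 toward 3p between leaf and petiole was 1.29 on the log2 scale. In 8 of the 51 other pairs an arm was listed at 0 in a tissue, so that their shift depends on the 1 added. Of the remaining 43 pairs 12 shifted at least as far in either direction, and the median size of the shift was 0.73.

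**Figure D2:**
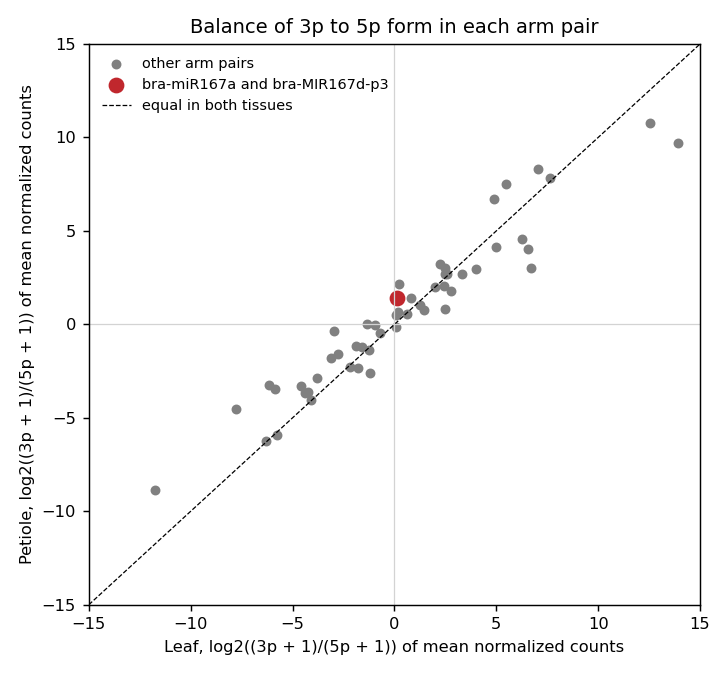
Balance of arms in leaf (x axis) and petiole (y axis) as log2 of the 3p form over the 5p form, each a mean normalized count with 1 added; grey points are 51 arm pairs of other miRNAs (8 with an arm at 0 in a tissue, whose place depends on the 1 added), the red point is bra-miR167a with bra-MIR167d-p3, and the dashed line marks equal balance in both tissues. This miR167 pair, the most abundant form of each arm and set after its values were seen, lies near 0 in leaf and above the dashed line.

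The composition of each arm also differed between tissues. The main form bra-miR167a made up 96.4%, 95.9% and 96.1% of the 5p sum in leaf and 70.0%, 62.9% and 67.9% in petiole. The main 3p form bra-MIR167d-p3 made up 99.6% to 99.7% of the 3p sum in leaf and 76.4%, 74.5% and 73.2% in petiole. The 7 further sequences together accounted for 2.05% ± 0.044 of the family in leaf and 27.5% ± 1.83 in petiole (SD, n = 3 each). In each of these shares the groups did not overlap.

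**Figure D3:**
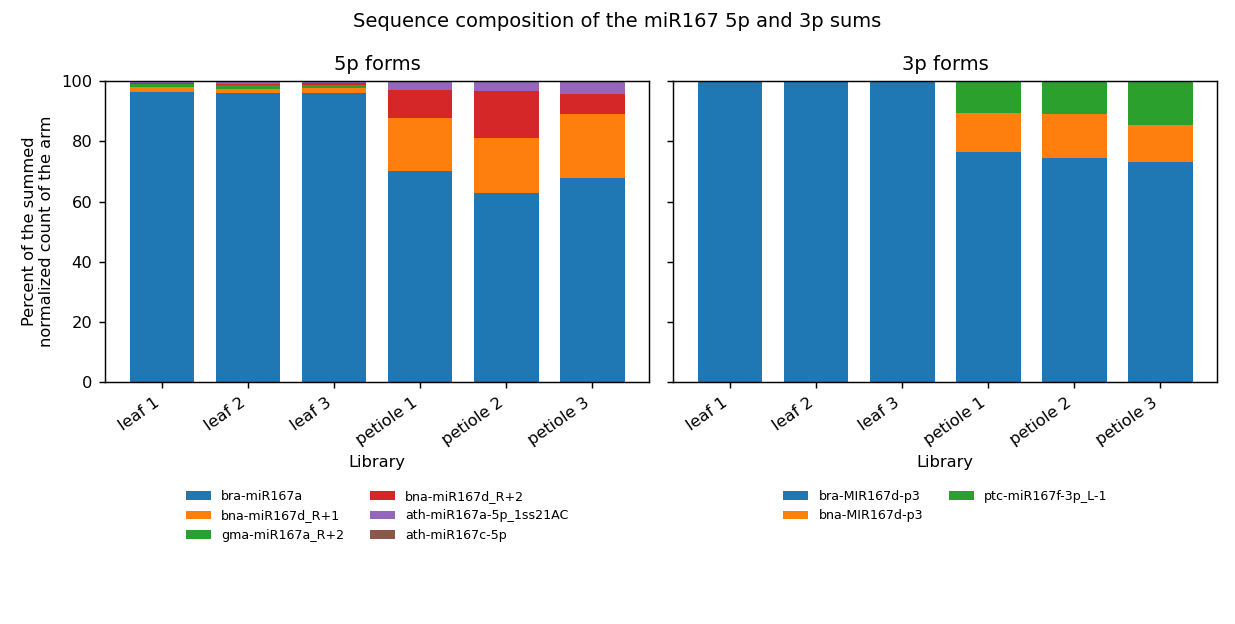
Share of each sequence in the summed normalized count of its arm, in percent, for the 5p arm (left panel) and the 3p arm (right panel), with 1 stacked bar per library. The main form fills nearly the whole bar in leaf, while in petiole bra-miR167a holds 62.9% to 70.0% of the 5p arm and bra-MIR167d-p3 holds 73.2% to 76.4% of the 3p arm.

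Relative to the main form of their own arm, the less abundant forms above 0 in petiole stood higher there. At their leaf ratios these forms would have had 0.13 to 1.56 reads in petiole. The smallest values above 0 in petiole libraries 1 to 3 stood for 2, 2 and 1.4 reads. A form taken for being above 0 was therefore nearly bound to stand higher, and nothing is read from the direction. The A21T form, bna-miR167d_R+1, was 1.72%, 1.64% and 1.70% of bra-miR167a in leaf and 25.3%, 28.9% and 31.0% in petiole. The A21C form, ath-miR167a-5p_1ss21AC, was 0.37% to 0.51% in leaf and 4.12% to 6.52% in petiole. The form bna-miR167d_R+2 was 0.46% to 0.68% in leaf and 9.78% to 24.9% in petiole, the widest spread of the 3.

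Had these forms kept their leaf ratio to bra-miR167a, their petiole values would have been 1.46, 0.36 and 0.51, against measured means of 24.5, 4.51 and 13.8. The measured means were 16.8, 12.4 and 27.1 times those values. Values that low lie below or near the smallest above 0 in a petiole library, 1.4 to 2 reads. A ratio above 1 was thus nearly set by taking forms above 0. The measured petiole values stood for 24.5 to 28.5, 4 to 6 and 9 to 22 reads. Some values did not stand for whole reads, such as the 88.3 reads of bra-miR167a in petiole library 2. How reads were divided between such similar entries is not stated in the labels, and its part in these ratios was not tested. On the 3p side bna-MIR167d-p3 went from 0.31% to 17.7% and ptc-miR167f-3p_L-1 from 0.050% to 16.1% of bra-MIR167d-p3.

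**Figure D4:**
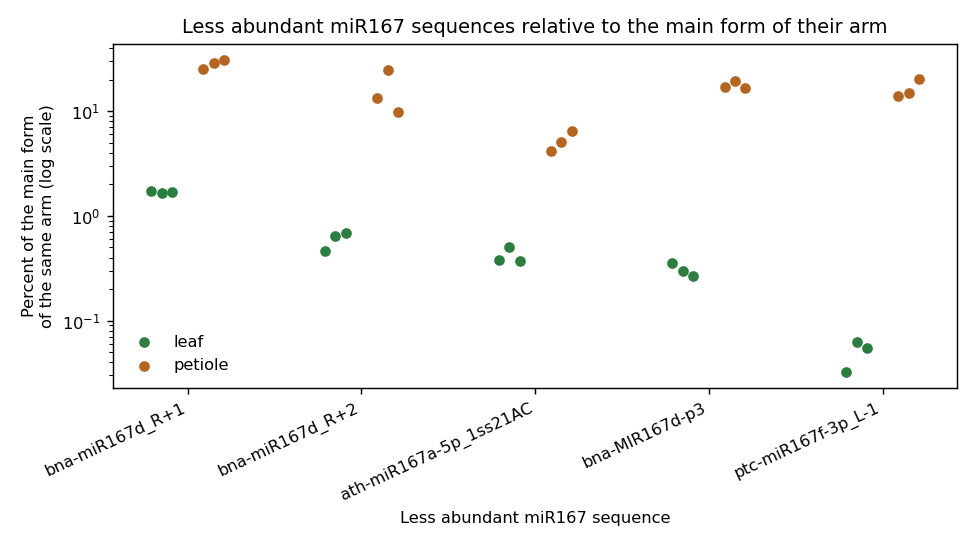
Level of each less abundant miR167 sequence above 0 in petiole, as a percent of the main form of its arm (bra-miR167a for 5p, bra-MIR167d-p3 for 3p) on a log axis, with 1 point per library (green leaf, brown petiole, 3 each). The petiole points of all 5 sequences lie above the leaf points, from 4.12% to 31.0% against at most 1.72%. Only sequences above 0 in petiole are drawn, and values at their leaf ratios would lie below or near the smallest values listed there.

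The entries outside the family with profiles most like bra-miR167a were sought by the root mean square difference of log2(value + 1), each profile centred on its own mean, over the 6 libraries. The nearest 5 were gma-MIR5368-p5_1ss1TC at 0.13, bra-MIR5723-p5 at 0.34, bra-MIR5723-p3 at 0.36, hbr-miR6173_L+1 at 0.63 and bra-miR391-5p at 0.65. All 5 were listed at 0 in every petiole library, with leaf means from 84.7 to 331, so their likeness to bra-miR167a depends on the 1 added before taking logs. Within the family gma-miR167a_R+2 stood at 0.17 and bra-MIR167d-p3 at 0.65.

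The nearest 3 to ptc-miR167f-3p_L-1 were ath-MIR8175-p3_2ss17TC21AC at 0.18, the predicted PC-5p-138317_32 at 0.22 and bra-miR172b-5p at 0.27. Of these bra-miR172b-5p, from the family that targets AP2-type transcription factors, was the most abundant, with 1149 ± 129 in leaf and 4101 ± 373 in petiole (SD, n = 3 each). Likeness over 6 libraries of 2 tissues mostly reflects the ratio between the tissues.

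Among other miRNA families of the auxin pathway, miR160 and miR393 held lower calls and miR390 higher calls in petiole on the deposited values, while with equal totals miR160 had 2 calls each way and miR393 had 1 higher and 3 lower. The list took miR160, which in Arabidopsis targets repressing auxin response factors. It also took miR390, whose cleavage of the TAS3 transcript sets off small RNAs against ARF3 and ARF4. The third family was miR393, directed at the TIR1 group of auxin receptors. No entry was named miR847. Of 27 sequences 23 were tested and 12 were called lower and 4 higher in petiole (limma across 601 entries, Benjamini-Hochberg adjusted p under 0.05), against 28.3% lower, 21.3% higher and 49.6% either way of all entries tested. Over the list the median log2 difference was -0.78, and it was 0.18 over all entries tested. Without petiole replicate 2 the higher calls numbered 2. As the libraries may not come from separate plants, these calls and their p values may rest on technical spread.

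The lower calls were 6 of 9 tested forms of miR160 and 6 of 9 of miR393. The form bra-miR160a-5p had 9085, 9532 and 9252 in leaf and 5424, 5630 and 5217 in petiole, with no overlap. Its log2 difference was -0.78 ± 0.05 (SE), and the adjusted p in the limma fit was 2.5e-05. Its 3p partner bra-miR160a-3p had 442 ± 32.3 and 428 ± 39.4 (SD, n = 3 each), which overlapped (limma adjusted p = 0.68). Of miR393, ath-miR393a-5p had 2559, 4081 and 3844 in leaf and 1190, 1660 and 1125 in petiole, with a log2 difference of -1.39 ± 0.22 (limma adjusted p = 0.0021). The form ath-miR393b-3p_1ss13CA was 1479 ± 13.2 and 241 ± 35.5, with a log2 difference of -2.62 ± 0.11 (limma adjusted p = 4.0e-06).

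The higher calls were 4 of 5 tested forms of miR390. The form bra-miR390-5p had 4555, 4409 and 4191 in leaf and 15120, 14865 and 15549 in petiole, with no overlap and a log2 difference of 1.79 ± 0.05 (limma adjusted p = 6.5e-07). Its 3p partner bra-miR390-3p was 514 ± 25.8 and 4308 ± 207 (SD, n = 3 each), with a log2 difference of 3.07 ± 0.06 (limma adjusted p = 2.1e-07). Another 2 of the 4, gma-miR390b-5p and aly-miR390b-3p_R+2_2ss5AG19CT, were listed at 0 in leaf and passed the filter through petiole alone. They were named after their values were seen.

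With equal totals the list had 7 higher and 5 lower calls, against 53.4% higher and 17.8% lower of all entries tested, and a median log2 difference of 0.079 against 0.97. On that scale bra-miR160a-5p turned to 0.079 and was not called, bra-miR160a-3p turned to 0.80 and was called higher, and ath-miR393a-5p was -0.54 and not called. Both named miR390 forms and ath-miR393b-3p_1ss13CA kept their direction and their call, with log2 differences of 2.65, 3.92 and -1.77. On this scale the log2 difference was -6.86 for bra-miR167a and -5.56 for bra-MIR167d-p3. The miR167 family was chosen on this contrast, so these values are not ranked against the list.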

How the data were processed

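Total RNA was extracted with Trizol and sequenced as TruSeq small RNA libraries on an Illumina HiSeq, per the labels' protocols, which also state that ACGT101-miR removed adapter dimers, low-complexity reads, repeats and common RNA families. No aligner, genome build or miRBase release was named. The signal values were deposited by the authors as normalized counts, per the file headers, and how each library's factor was set is not stated. Low values lay on steps of 0.904 to 1.06, taken as 1 read. Of values under 60 reads, 71.5% to 76.9% were whole and 98.4% to 99.7% whole or plus 0.5, within 0.02 reads, so counts were not recovered and count models were not run. Depth in reads is approximate for this reason, and counting error is largest for low values.

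Repeated sequences were counted once, which removed 58 rows. Libraries of the same tissue correlated at 0.94 to 0.96 across entries. The chi-square statistic of each such pair was 3.40 to 8.50 times its degrees of freedom, a spread beyond counting error. Each library counted as 1 sample, although this spread does not show that they came from separate plants. The p values may therefore measure technical spread. Tests used limma 3.58.1, run in R 4.3.3 with trend set, on log2(value + 1), petiole minus leaf, over entries with a mean of at least 5, adjusted by Benjamini-Hochberg and called under 0.05. No p is given for miR167. The fit was tested on simulated data. The arm was read from the name, or from an arm-named entry with the same first 18 bases. Pairing used RNAduplex 2.7.2. The rule on names covered all miR167 sequences, the 2 most abundant tested forms of each listed auxin family, and the nearest profiles and arm pairs. The name rule did not join bra-miR167a with bra-MIR167d-p3, since their locus letters differ. They were paired as the most abundant form of each arm, after the values were seen. The miR167 pairs set by name and the count over pairs above 0 were likewise added after seeing the data. The members, lists and rules were chosen with earlier results of these data known. Alternatives covered scaling, the added constant, the filter, the replicate number and each library left out.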

Additional observations from a re-analysis of the deposited data

How the results depend on the processing

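For the miR167 sum the log2 difference of -6.46 became -5.61 with equal totals, -5.68 with totals of the other entries made equal, and -6.39 with every table row counted; without 1 library it ranged from -6.50 to -6.43. The difference in the log2 ratio of 3p to 5p, 1.19, became 0.60 with every row counted, because the main 3p sequence stands in 3 rows, and ranged from 1.12 to 1.25 without 1 library. Counting every row gave shares of bra-miR167a in the 5p sum of 93.2% in leaf and 51.8% in petiole, and shares of miR167 in the table of 8.98% and 0.200%. For single sequences bna-MIR167d-p3 turned to 0.28 with equal totals and 0.21 with totals of the other entries made equal. The other 8 kept their sign under every alternative that included them. A mean of at least 50 left out ptc-miR167f-3p_L-1, ath-miR167a-5p_1ss21AC and ath-miR167c-5p. Of 298 called entries (128 higher, 170 lower), equal totals gave 321 higher and 107 lower, totals of the other entries made equal 300 and 113, and a mean of at least 50 gave 156 in all, 50 higher and 106 lower, from fewer entries tested. Without 1 library 244 to 279 were called, 88 to 125 higher and 140 to 165 lower. In the auxin list the 4 higher and 12 lower calls became 7 and 5 with equal totals, 7 and 6 with totals of the other entries made equal, and 2 higher with a mean of at least 50; without 1 library higher calls ranged from 2 to 5 and lower calls from 9 to 13. Libraries were also scaled by the median ratio over entries above 0 in all of them. The auxin list then kept 4 higher and 12 lower calls, and 296 entries were called in all. The miR167 sum was -6.44 and bra-miR160a-5p -0.76 on that scale. Under the 2 kinds of equal totals bra-miR160a-5p turned to 0.079 and 0.0067. The form bra-miR160a-3p turned to 0.80 and 0.73 there, and ranged from -0.12 to 0.015 without 1 library, above 0 without leaf replicate 2 (0.0098) or petiole replicate 1. Replicate numbers share only a number: the replicate block gave 280 calls, 17 of them in the auxin list, and deviations of same-numbered libraries correlated at 0.07, 0.01 and 0.01. Low values rest on few reads, which limits the ratios of the less abundant forms in petiole.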
